A study of Mus musculus with 2 samples.

Results

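Chemokine receptors, the surface proteins through which leukocytes sense the small secreted proteins that guide their movement, were examined in cells sorted from subcutaneous Lewis lung carcinoma (LLC) tumors of mice. The 9 receptor genes Ccr1, Ccr2, Ccr3, Ccr7, Ccrl2, Cx3cr1, Cxcr2, Cxcr4 and Cxcr6 were taken by name out of 22886 genes with a value. Each was listed on a single row in each of 2 RNA sequencing libraries. One library came from wild type C57BL/6 mice injected with vehicle and the other from wild type C57BL/6 mice injected with clodronate, an agent used to deplete phagocytes such as macrophages, and mice of both groups carried the tumor. The labels call the sorted cells aerobic tumor cells and give no age, sex, dose, time, sorting marker or number of mice. The growth protocol refers to EML cells, a line of blood progenitors, and so goes against the tissue label. There was 1 library per condition, so no difference below has a replicate check, an error or a p-value.

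Most chemokine receptors span the membrane several times and signal through inhibitory G proteins, which leads to directed migration. Members of the family mark different leukocytes: Ccr2 brings inflammatory monocytes from the blood into tissue, Cx3cr1 marks patrolling monocytes and many resident macrophages, Cxcr2 guides neutrophils, and Ccr7 guides mature dendritic cells to lymph nodes. In tumors, macrophages that arise from recruited monocytes are commonly the most abundant leukocytes, and CXCR4, the receptor of CXCL12, is a known target of hypoxia signaling.

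The labels were set against marker genes before the receptors were described. Levels are given in RPKM, a read density that allows for transcript length and library size, so genes can be set side by side. All 14 macrophage markers examined had at least 10 RPKM in both libraries, and their sum was 30239 RPKM in the vehicle library and 27477 RPKM in the clodronate library. By contrast Epcam and Krt19, commonly used epithelial markers, were at 0 in both. The other 4 epithelial markers were low but averaged at least 1 RPKM. Cdh1 had 6.14 and 6.44 RPKM, Krt18 had 2.97 and 3.19 RPKM and Krt8 had 3.67 and 1.33 RPKM. Krt7 was listed at 0 in the clodronate library only. The 6 epithelial markers summed to 14.98 and 10.97 RPKM. No list of LLC cell markers was examined, so the presence of tumor cells was not tested. Macrophage RNA was therefore high in both libraries, the one labelled clodronate included, and the names vehicle and clodronate library below refer to labels only. In bulk RNA, fewer cells of a type and less RNA per cell cannot be told apart.

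**Figure D1:**
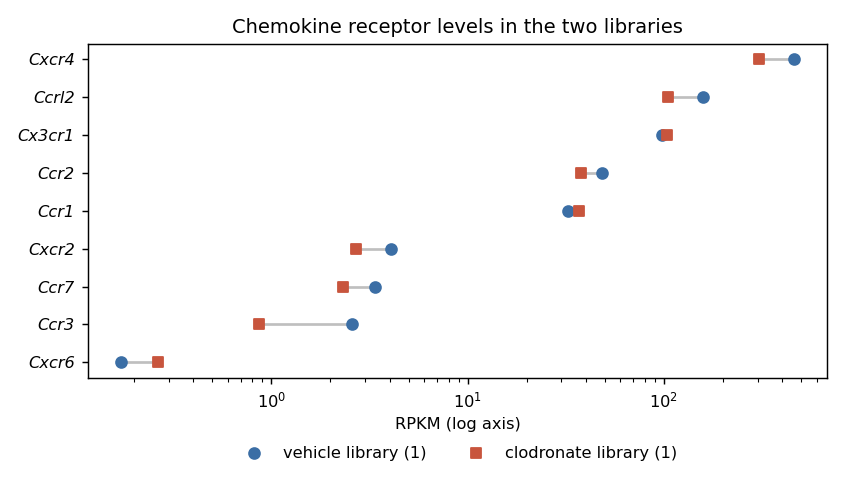
Level of each of the 9 receptors in RPKM (horizontal log axis) in the vehicle library (circles) and the clodronate library (squares), 1 library each, joined by a line. The order from Cxcr4 at the top to Cxcr6 at the bottom was the same in both libraries, and the largest gap on this axis was that of Ccr3, with 2.58 and 0.869 RPKM.

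The receptors were spread over a wide range of levels. Cxcr4 stood highest, followed by Ccrl2, Cx3cr1, Ccr2, Ccr1, Cxcr2, Ccr7, Ccr3 and Cxcr6, and all 9 held the same place in both libraries, as the plot of levels shows. Of these, 5 had at least 10 RPKM in both libraries and 4 were below 10 RPKM in both. Some neighbours were nearly level. In the clodronate library Ccrl2 was 1.02-fold above Cx3cr1 and Ccr2 was 1.02-fold above Ccr1, whereas in the vehicle library these steps were 1.61-fold and 1.49-fold. Without replicates it was not tested whether any neighbours differ. Summed over the 9 genes, the level was 807 RPKM in the vehicle library and 596 RPKM in the clodronate library, and Cxcr4 alone held 56.9% and 51.4% of it.

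Ratios were taken for the 10982 genes whose mean reached 1 RPKM, and 8 of the 9 receptors were among them. Cxcr6 was not. Log2 ratios compare clodronate with vehicle after 1 RPKM was added to each value, a pseudocount that makes the differences of scarce genes look smaller. None of the 8 receptors was at least 3-fold higher or 3-fold lower in the clodronate library, while 2.86% and 2.32% of all genes kept were. At 2-fold the counts were again 0 and 0, against 6.95% and 6.77% of all genes kept, but the count of 0 lower rests on the pseudocount, since Ccr3 is past 2-fold with a pseudocount of 0.1 RPKM. Of the 8 receptors 6 were lower and 2 were higher in the clodronate library. Their median log2 ratio was -0.43, and the median of all genes kept was 0.019. To show how widely ratios scattered at a given level, the genes kept were split into 10 groups of rising mean RPKM. Each of the 8 receptors lay inside the central 90% of the ratios of its group.

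**Figure D2:**
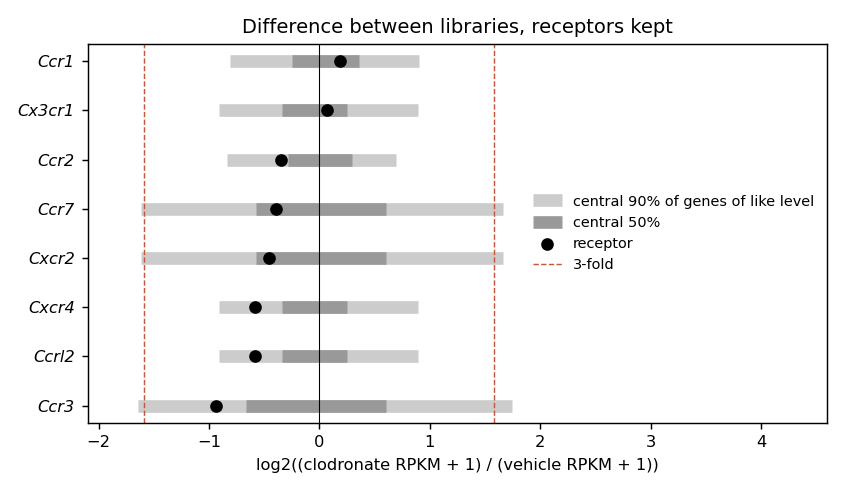
Log2 ratio, clodronate against vehicle (horizontal axis, pseudocount of 1 RPKM), for the 8 receptors kept (points). Bars span the central 90% (light) and central 50% (dark) of the genes in the same of 10 groups by mean RPKM, and dashed lines mark 3-fold. All points lie inside the light bars, from -0.94 for Ccr3 to 0.19 for Ccr1.

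Cxcr4 is shown first because it was the most abundant receptor. It binds CXCL12 and holds leukocytes in the bone marrow and in tissues rich in that ligand. In mm9, the build named in the submitters' processing notes, its locus (NM_009911) is listed at chr1:130484775-130488876. Cxcr4 stood at 459 RPKM (vehicle) and 307 RPKM (clodronate), 1.85% and 2.78% from the top of the genes kept. The level was 1.499-fold lower in the clodronate library, a log2 ratio of -0.58. Genes of like level had log2 ratios from -0.91 to 0.89 over their central 90%. Its ligand Cxcl12, made mainly by stromal cells, had 1.42 RPKM in the vehicle library and was listed at 0 in the clodronate library. Its mean did not reach 1 RPKM, so no ratio was drawn from it. Markers of fibroblasts, a common source of Cxcl12, summed to 154 and 75.4 RPKM. Most of this was Dcn (77.3 and 28.4 RPKM) and Col3a1 (62.1 and 34.4 RPKM). Of the 6 fibroblast markers kept, 5 were lower with clodronate and 1, Col1a1, was higher (2.32 and 5.40 RPKM). The part of these markers in the Cxcr4 and Cxcl12 differences was not tested.

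Promoter sequence was looked up for the receptors at the extremes of level, Cxcr4 at the top and Ccr3 at the bottom of those kept, with Ccr2 between them. The RefSeq promoter table of GRCm38.p6 held windows for 8 of the 9 receptors, and Ccr7 was the other one. The 250 bases before the start site are printed 5′ to 3′ on the gene's strand, at chr1:128592300-128592549 (minus strand) for Cxcr4, chr9:124101933-124102182 (plus strand) for Ccr2 and chr9:124021721-124021970 (plus strand) for Ccr3. Capitals mark matches on either strand to GAGGAA, a core of sites for PU.1 and other ETS factors, to ACGTG or GCGTG, cores of the hypoxia response element, or to TATAAA, the TATA box.
Cxcr4: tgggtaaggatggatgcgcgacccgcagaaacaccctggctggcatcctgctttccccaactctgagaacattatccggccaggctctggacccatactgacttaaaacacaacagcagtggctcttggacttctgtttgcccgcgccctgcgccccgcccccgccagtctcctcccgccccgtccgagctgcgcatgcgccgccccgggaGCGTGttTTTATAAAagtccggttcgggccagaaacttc
Ccr2: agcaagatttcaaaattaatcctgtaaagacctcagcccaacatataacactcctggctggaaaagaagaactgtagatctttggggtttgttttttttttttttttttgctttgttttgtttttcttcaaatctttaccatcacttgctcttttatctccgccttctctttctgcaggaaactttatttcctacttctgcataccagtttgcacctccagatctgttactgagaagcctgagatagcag
Ccr3: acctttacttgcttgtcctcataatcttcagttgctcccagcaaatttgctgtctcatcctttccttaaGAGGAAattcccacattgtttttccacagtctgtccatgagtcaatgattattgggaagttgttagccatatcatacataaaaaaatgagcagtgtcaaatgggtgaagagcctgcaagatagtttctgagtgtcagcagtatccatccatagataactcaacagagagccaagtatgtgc
The Cxcr4 window had 61.2% GC and 19 CpG dinucleotides, the Ccr2 window 37.2% and 1, and the Ccr3 window 40.4% and 0. Medians over all 32851 windows of this length were 52.4% and 6. In Cxcr4, GCGTG lay 39 to 35 bases before the start site, and TATAAA matched on both strands in overlapping positions from 32 to 25 bases before it. Over the 8 receptors with a window, GCGTG was found in 3, GAGGAA in 3, ACGTG in 1 and TATAAA in 1. A receptor was counted if any of its windows held the match. Ccrl2 had 3 overlapping or adjoining windows, each with ACGTG, and only window 3 held GCGTG. Of all windows, counted singly, 28.2% held GCGTG, 23.3% held GAGGAA, 16.6% held ACGTG and 12.4% held TATAAA. The counts per receptor and the shares per window are therefore not in the same unit. These matches describe letters, and no binding was measured.

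Ccrl2, an atypical receptor that binds chemerin and presents it to other cells without classical signaling, was second in level. Its locus (NM_017466) is chr9:110957338-110959774 in mm9. It stood at 158 RPKM (vehicle) and 105 RPKM (clodronate), 1.51-fold lower with clodronate, a log2 ratio of -0.59. The step between libraries was nearly that of Cxcr4, and the ratio of Cxcr4 to Ccrl2 was 2.90 in the vehicle and 2.92 in the clodronate library. Rarres2, which encodes chemerin, was listed at 0 with vehicle and at 2.47 RPKM with clodronate. It reached a mean of 1 RPKM only through the clodronate library, so its direction is no result. Cmklr1, the signaling receptor for chemerin, had 119 and 122 RPKM.

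Cx3cr1 (NM_009987, chr9:119957800-119977414) and Ccr2 (NM_009915, chr9:124016921-124023879) are the pair by which monocyte and macrophage subsets are commonly told apart. Cx3cr1 stood at 98.3 RPKM (vehicle) and 103 RPKM (clodronate), a log2 ratio of 0.070. Ccr2 had 48.5 and 37.8 RPKM, 1.28-fold lower with clodronate, a log2 ratio of -0.35. Cx3cr1 thus stood 2.03-fold above Ccr2 in the vehicle library and 2.73-fold above it in the clodronate library. Relative to Csf1r, the receptor for the macrophage growth factor CSF1, Cx3cr1 was at 0.220 and 0.222 and Ccr2 at 0.109 and 0.0812. Of the genes that accompany Cx3cr1 in patrolling monocytes, Nr4a1, a transcription factor they need, stood at 303 and 294 RPKM and Spn at 16.9 and 20.5 RPKM. Treml4 had 4.75 and 3.76 RPKM and Ace 0 and 0.246 RPKM, so the 4 genes did not share 1 direction.

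Other genes of classical monocytes, the cells that carry most Ccr2, did not share 1 direction. Plac8 was at 45.4 RPKM with vehicle and 91.8 RPKM with clodronate, F13a1 had 132 and 247 RPKM, and Ly6c2, the gene of the Ly6C antigen, had 12.99 and 23.05 RPKM. Chil3 went the other way, with 36.4 and 14.8 RPKM. Over the 5 classical monocyte markers reported 4 were higher in the clodronate library and 1 lower, with sums of 239 and 391 RPKM. Their part in the Ccr2 difference was not tested.

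The ligands of CCR2 had higher levels in the clodronate library. Ccl2, the main monocyte attractant, was at 311 RPKM with vehicle and 720 RPKM with clodronate. Ccl7 had 167 and 329 RPKM, and Ccl12, a mouse relative of Ccl2, had 44.5 and 151 RPKM, 3.39-fold higher. The receptor was thus lower and its 3 ligands higher in the same library. With the ratio of Ccr2 centred within groups of like GC content, its difference shrank to a log2 ratio of -0.11. Cx3cl1, the only ligand of CX3CR1 and usually made by neurons, epithelium and endothelium, was listed at 0 with vehicle and at 0.605 RPKM with clodronate.

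Ccr1 (NM_009912, chr9:123876958-123883525) is found on monocytes, macrophages and neutrophils and binds several inflammatory CC chemokines. Its level was 32.5 RPKM in the vehicle library and 37.1 RPKM in the clodronate library, 1.14-fold higher, with a log2 ratio of 0.19. This was the highest ratio among the 8 receptors, and it lay inside the central 50% of genes of like level, from -0.25 to 0.35. Centred within groups of like GC content it was 0.43. Relative to Csf1r it was 0.0728 and 0.0798. Some of its ligands were among the most abundant chemokine transcripts examined. Ccl6 had 1142 and 1538 RPKM, Ccl9 had 568 and 502 RPKM, Ccl3 had 398 and 331 RPKM and Ccl5 had 39.2 and 36.6 RPKM, all within 1.35-fold between the libraries, whereas Ccl7, given above, was 1.97-fold higher with clodronate.

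**Figure D3:**
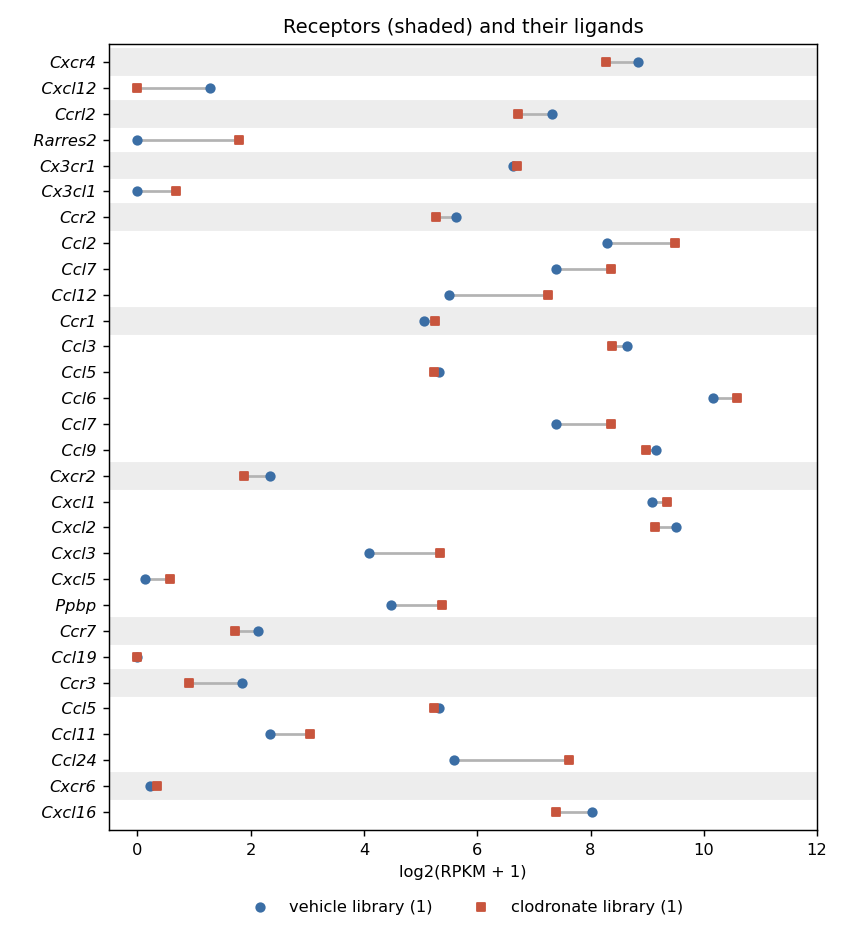
Levels as log2(RPKM + 1) (horizontal axis) of the 9 receptors (shaded rows) and, under each, the ligands examined for it, in the vehicle library (circles) and the clodronate library (squares). Ccl5 and Ccl7 bind more than 1 receptor and appear under each. Ccl2, Ccl7, Ccl12 and Ccl24 lie to the right in the clodronate library, while Cxcl16 and Cxcl12 are among those to the left.

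The remaining 4 receptors were scarce. They are commonly used to mark leukocytes other than macrophages, but which cells gave their RNA here was not tested. Ccr3 (NM_009914, chr9:123936702-123946421), the eotaxin receptor of eosinophils, basophils and some mast cells, stood at 2.58 RPKM (vehicle) and 0.869 RPKM (clodronate). That is 2.97-fold lower as a plain ratio, the largest difference of the 9 receptors, and a log2 ratio of -0.94 with the pseudocount. At this low level ratios scattered more, from -1.64 to 1.74 over the central 90% of like genes. Its ligand Ccl24 went the other way, with 47.2 and 196 RPKM, 4.15-fold higher in the clodronate library, and Ccl11 had 4.09 and 7.26 RPKM. Markers of the cells that carry Ccr3 were mixed. Siglecf and Epx, which define eosinophils, and Mcpt8, which defines basophils, were listed at 0 in both libraries. Other eosinophil genes were not, with 2.32 and 1.33 RPKM for Il5ra, the receptor for interleukin 5, and 0 and 1.54 RPKM for Prg2. The mast cell proteases Cpa3 and Tpsb2 had 33.0 and 21.6 RPKM and 23.6 and 27.6 RPKM. By contrast Kit and Fcer1a, markers of the same list, were scarce, with 1.36 and 0.717 RPKM and 0 and 0.108 RPKM. Over the 9 markers of these cells the sums were 60.3 and 52.9 RPKM, and their part in the Ccr3 difference was not tested.

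Cxcr2 (NM_009909, chr1:74200567-74207820), the neutrophil receptor for CXC chemokines such as CXCL1 and CXCL2, stood at 4.06 RPKM (vehicle) and 2.69 RPKM (clodronate), 1.51-fold lower with clodronate, a log2 ratio of -0.46. Of 9 neutrophil markers found, 7 were listed at 0 in both libraries, among them S100a9, Camp, Ngp, Ltf, Elane and Mpo. The others were S100a8, with 12.7 and 23.1 RPKM, and Csf3r, the receptor for granulocyte growth factor, with 26.4 and 19.3 RPKM. Of the stretches of 50 bases in the Cxcr2 transcript, 6.77% also occur in other genes. The shares were 3.73% for Ccr2 and 0.459% for Cx3cr1, and none was found for the remaining receptors. Its ligands were abundant, with 539 and 652 RPKM for Cxcl1 and 724 and 564 RPKM for Cxcl2. Cxcl3 had 16.04 and 39.5 RPKM and Ppbp, usually a platelet chemokine, 21.3 and 40.4 RPKM.

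Ccr7 (NM_007719, chr11:99005512-99016391) stood at 3.36 RPKM (vehicle) and 2.31 RPKM (clodronate), 1.46-fold lower with clodronate, a log2 ratio of -0.40. Fscn1, the actin-bundling protein of mature dendritic cells, was also lower, with 5.45 and 2.35 RPKM, and the dendritic cell chemokine Ccl22 had 17.96 and 14.21 RPKM. Cd209a went the other way, with 1.25 and 8.68 RPKM. Cacnb3 and Zbtb46 were nearly level, with log2 ratios of 0.0095 and 0.027. Of the 5 dendritic cell markers kept, 2 were thus lower and 3 higher in the clodronate library. Over the 8 dendritic cell markers found the sums were alike, 29.3 and 29.4 RPKM, and their part in the Ccr7 difference was not tested. Ccl19, a ligand of CCR7 made in lymph nodes, was listed at 0 in both.

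Cxcr6, a receptor of activated T and NK cells, was the scarcest, with 0.172 RPKM in the vehicle library and 0.263 RPKM in the clodronate library. The files give it (NM_030712) the same locus as Fyco1, chr9:123698627-123761020, and Fyco1 stood at 7.67 and 9.28 RPKM. No read totals were given. Among 1160 loci with values above 0 and below 1 RPKM in both, the vehicle value was most often 0.816 times the clodronate value, within 0.1% at 72 loci. Equal numbers of reads at such loci would make the vehicle library 1.23 times as deep. On that scale the Cxcr6 values stand as 0.799 to 1, within 0.1% of the ratio that 4 and 5 reads would give, although larger numbers in the same ratio would give it too, and read totals are unknown. No difference is drawn from these values. Of the T and NK cell markers Cd3e, Cd3g and Ncr1 were listed at 0 in both, and Cd3d had 0.837 and 0.0789 RPKM. The NK and effector genes Nkg7, Klrb1c and Gzmb were listed at 0 with vehicle and at 1.02, 0.918 and 0.586 RPKM with clodronate. The 12 markers summed to 11.6 and 10.4 RPKM, of which Cd4 made up 10.3 and 7.72 RPKM, and without Cd4 the sums were 1.30 and 2.68 RPKM. Their part in the Cxcr6 values was not tested. The ligand Cxcl16, which macrophages make, had 261 and 167 RPKM, 1.57-fold lower in the clodronate library.

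**Figure D4:**
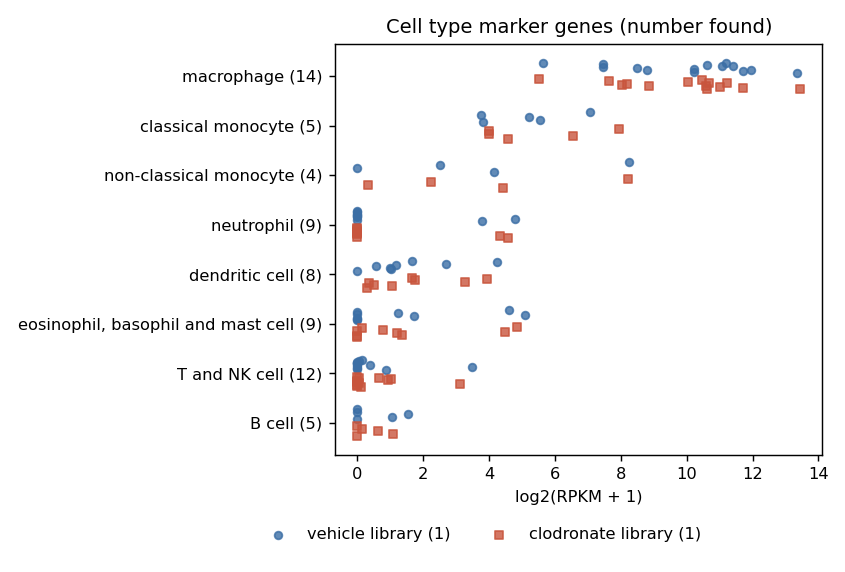
Levels as log2(RPKM + 1) (horizontal axis) of cell type marker genes in the vehicle library (circles) and the clodronate library (squares), 1 point per gene, with the number of genes found in brackets. Macrophage markers lie far to the right in both libraries, and 7 of 9 neutrophil markers lie at 0.

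Of 14 further chemokine receptors reported here, 11 were below 1 RPKM in both libraries. The other 3 were higher in the clodronate library, but Cxcr3 and Ccr1l1 reached a mean of 1 RPKM only through that library, so their direction is fixed by that limit and is no result. Receptors with a higher vehicle value did not reach it, among them Cxcr5 with 0.602 and 0 RPKM and Cxcr1 with 0.473 and 0 RPKM. Ackr3, an atypical receptor that scavenges CXCL12, was at 1.35 RPKM with vehicle and 7.03 RPKM with clodronate. Cxcr3, a receptor of effector T and NK cells, had 0.465 and 1.77 RPKM. Ccr1l1, a neighbour of Ccr1 in the chromosome 9 cluster, was listed at 0 with vehicle and at 2.12 RPKM with clodronate. Of the 3 receptors kept here, 2 were at least 3-fold higher with the pseudocount, while 2.86% of all genes kept were. These were Ackr3 and Ccr1l1, with log2 ratios of 1.78 and 1.64.

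Downstream of the receptors, all 20 signaling genes examined had at least 10 RPKM in both libraries. None passed 3-fold, but few genes did: among all genes kept 2.86% passed it upward and 2.32% downward. Of these, 16 were higher in the clodronate library and 4 lower, with a median log2 ratio of 0.27 and a range from -0.29 to 0.46. Gnai2, the main inhibitory G protein subunit of leukocytes, had 355 and 476 RPKM and the arrestin gene Arrb2 had 245 and 294 RPKM. The 4 lower ones were Rgs1 (379 and 309 RPKM) and Rgs2 (76.9 and 63.0 RPKM), which shut off G protein signals, Rgs10 (290 and 257 RPKM) and Elmo1 (78.7 and 75.7 RPKM). Their relative Rgs19 was not lower, with 60.5 and 61.4 RPKM. The receptor kinase genes Grk2 and Grk6 were higher, with 83.3 and 93.4 RPKM and 24.6 and 29.2 RPKM. Among 10 chemoattractant receptors outside the family the median log2 ratio was 0.13, with 220 and 281 RPKM for C5ar1, the C5a receptor, and 214 and 243 RPKM for C3ar1. Fpr1, a receptor for bacterial formyl peptides, had 0 RPKM with vehicle and 3.89 RPKM with clodronate, and reached the mean of 1 RPKM only through the latter. The medians of these lists were not tested against that of the 8 chemokine receptors.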

How the data were processed

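The authors deposited RPKM values for 2 mouse polyA RNA libraries, with 23170 loci on matching rows. The submitters' processing notes name mm9, CASAVA 1.8.2, TopHat2 2.0.9, Bowtie 0.12.9, Cufflinks 2.2.1 and Cuffdiff. Strand and read totals are not given in the sources used here, so depth is unknown and no interval was computed. The paper describes no experiment with these libraries. Rows of 1 symbol were summed (26 numeric symbols were replaced by accessions), which left 22886 genes. Ratios used a pseudocount of 1 RPKM and left out genes averaging under 1 RPKM. With 1 library per condition a 3-fold rule took the place of a test. Members and lists were chosen with earlier results of these data known. All members, the ligands and other receptors with at least 1 RPKM, and list genes of highest level or past 3-fold were named by rule, and others, such as Rgs2, Fscn1, Siglecf and Fyco1, after their values were seen. In total 19 of 20 ligands were found. Shared stretches came from GENCODE M21 transcripts. Protein sequences were not used here. Some genes of these lists are not reported here. Only the 3-fold rule was tested on simulated data, with larger changes put into abundant genes, so scarce receptors and the other steps were not covered. Alternatives were a pseudocount of 0.1, no filter or one of 5 RPKM, median centring, upper-quartile and macrophage-marker scaling, the highest row per symbol and 2-fold; centring within 10 groups of GC content, length or level was added after seeing the data. Python 3.11.15, numpy 2.4.6, pandas 2.3.3 and matplotlib 3.10.9 were used.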

Additional observations from a re-analysis of the deposited data

How the results depend on the processing

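No paired analysis was possible because there was 1 vehicle and 1 clodronate library, and neither could be left out. The counts of receptors past 3-fold stayed at 0 in both directions under every alternative run. At 2-fold 0 were past it in either direction, but with a pseudocount of 0.1 RPKM or centred within groups of like transcript length 1 was lower, Ccr3. The 2-fold counts under alternatives were added after seeing the data. The median log2 ratio of the receptors was -0.43, and with a pseudocount of 0.1 RPKM it was -0.55, since a smaller pseudocount widens the ratios of scarce genes. Under the other alternatives it lay between -0.49 and -0.35, the latter being the median of the 5 receptors left by the 5 RPKM filter. No receptor changed direction under any alternative that could be run for it. Ccr3 moved most, with log2 ratios from -1.47 at a pseudocount of 0.1 RPKM to -0.69 when centred within groups of like GC content. That centring also moved Ccr2 from -0.35 to -0.11 and Ccr1 from 0.19 to 0.43. The cause was not tested. Ccr3, Ccr7 and Cxcr2 have no value under the 5 RPKM filter. Cx3cr1 lay between 0.0082 and 0.14, close to no difference throughout. Cxcr6 enters only without a filter, with a log2 ratio of 0.11. The highest row per symbol could change nothing, as each receptor has 1 row. Unknown depth limits Ccr3, Ccr7, Cxcr2 and Cxcr6 most.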
